A study of Homo sapiens with 3 samples.

Results

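Fatty acid synthesis and desaturation were followed through 10 genes, FASN, SCD, ACACA, ACLY, FADS1, FADS2, ELOVL5, ELOVL6, SREBF1 and ACSS2, in A375 melanoma cells exposed to the secretome of young or old adipocytes. The genes were taken by symbol, whatever their counts, from a table of 58037 genes, and all 10 were found there as 1 entry each. In the library exposed to old adipocyte secretome (OA-A375), ACSS2, which makes acetyl-CoA from acetate, was at 0.348 of its control level. The elongase ELOVL6 and the desaturases FADS2 and SCD were at 0.624, 0.672 and 0.699 of control in that library, while FASN and ACACA were at 0.888 and 0.887. In the library exposed to young adipocyte secretome (YA-A375), FASN was 1.31-fold and ACACA 1.23-fold of control. Each group had 1 library, so no difference between groups has a replicate check. Fewer cells with a transcript and less of it per cell cannot be told apart in such libraries.

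Cells build fatty acids from cytosolic acetyl-CoA. ACLY makes it by cleaving citrate exported from mitochondria, and ACSS2 makes it from acetate. ACACA carboxylates acetyl-CoA to malonyl-CoA, FASN condenses these units into palmitate, ELOVL6 lengthens palmitate to stearate, and SCD turns stearate into oleate. FADS2, ELOVL5 and FADS1 act in turn on linoleic and alpha-linolenic acid from the diet to give long polyunsaturated acids such as arachidonic acid. SREBF1 encodes SREBP1, a membrane-bound transcription factor that is released by proteolysis and activates genes of fatty acid synthesis. Its paralog SREBF2 encodes the factor best known for activating cholesterol synthesis genes. Sterols are known to restrain the processing of both factors, and polyunsaturated fatty acids that of SREBP1. Melanoma cells can take up lipids that adipocytes release.

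A375 is an established human melanoma line, and all 3 libraries come from this single line. Control cells were kept in serum-free DMEM that no cell had conditioned. YA and OA cells were kept in serum-free DMEM conditioned by adipocytes, which were differentiated in culture from human subcutaneous preadipocytes of younger or older donors with insulin, dexamethasone, indomethacin and IBMX. The effect of conditioned medium as such and that of the adipocytes' age therefore cannot be told apart in a comparison with control. How many donors supplied each secretome was not given for these libraries. In the study's list of adipocyte donors, all the older ones were male and nearly all the younger ones female. The younger were mostly purchased chest cells, and the older came mostly from a biobank and from varied body sites. Donor age may therefore run together with sex, source and site when YA is compared with OA. The description of the series gives an exposure of 24 h, and the treatment protocol shared by the samples gives a range that reaches beyond it.

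Poly(A) libraries held between 18089008 counts in OA and 21448195 in control. Of melanocyte lineage markers, SOX10 had 0 counts in all 3 libraries and PMEL and TYR at most 10, while MITF had 1221, 764 and 881 counts in control, YA and OA. MLANA had 22, 18 and 16 counts, TYRP1 6, 3 and 3, DCT 2, 1 and 2, and S100A1 19, 30 and 15. The rest of the melanoma and melanocyte list was well counted. S100B had 843, 591 and 550 counts, SOX9 422, 253 and 355, NGFR 3060, 2774 and 1289, and AXL 9837, 8832 and 10449. Normalised counts are counts over the size factor of their library (median of ratios). A gene was called higher or lower at a 1.2-fold difference, the cutoff of the study's methods read as a linear fold. All 10 genes were among the 14413 whose normalised count averaged 20 or more over the libraries. Of the 12 melanoma and melanocyte markers, 6 passed this filter. Against control, 1 of them was higher and 3 lower in YA, beside 17.4% and 16.4% of all genes. In OA 1 was higher and 2 lower, beside 21.1% and 21.5%. Intervals are 95% Clopper-Pearson intervals from the reads of the 2 libraries compared. They cover counting error only. No use of molecular identifiers is stated, so reads may include copies of 1 molecule.

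The promoters of 5 genes are shown here, those furthest below control in OA and, for contrast, a gene that differed little. ACSS2, ELOVL6, FADS2 and SCD were the 4 with a counting interval wholly beyond 1.2-fold lower, as 9.08% of all genes tested had. That share takes in genes with far fewer counts, whose intervals are wider, so it is not matched for depth. ELOVL5 was the one whose 3 levels lay closest together. The RefSeq promoter table (GRCh38.p14) matched 9 of the 10 genes, all but FASN, and gives 250 bases before and 50 after a start site. Each window reads 5′ to 3′ along the gene's strand, with capitals at every match on either strand to a CCAAT box (CCAAT), a GC box (GGGCGG) or an E-box (CACGTG). No match to one of these motifs overlapped a match to another in the 5 windows.
ACSS2 (chr20:34874739-34875038, plus strand): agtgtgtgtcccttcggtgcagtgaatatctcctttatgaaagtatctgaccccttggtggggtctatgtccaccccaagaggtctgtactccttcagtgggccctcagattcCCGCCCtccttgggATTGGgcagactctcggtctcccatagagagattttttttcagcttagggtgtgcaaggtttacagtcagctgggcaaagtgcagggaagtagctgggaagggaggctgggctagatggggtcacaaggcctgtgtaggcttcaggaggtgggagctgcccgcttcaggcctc
ELOVL6 (chr4:110198566-110198865, minus strand): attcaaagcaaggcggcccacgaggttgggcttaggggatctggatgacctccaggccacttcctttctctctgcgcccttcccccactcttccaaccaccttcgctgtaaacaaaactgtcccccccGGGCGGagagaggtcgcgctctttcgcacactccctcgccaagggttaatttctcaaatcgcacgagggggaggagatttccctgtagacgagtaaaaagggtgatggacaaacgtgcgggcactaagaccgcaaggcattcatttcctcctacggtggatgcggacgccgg
FADS2 (chr11:61815953-61816252, plus strand): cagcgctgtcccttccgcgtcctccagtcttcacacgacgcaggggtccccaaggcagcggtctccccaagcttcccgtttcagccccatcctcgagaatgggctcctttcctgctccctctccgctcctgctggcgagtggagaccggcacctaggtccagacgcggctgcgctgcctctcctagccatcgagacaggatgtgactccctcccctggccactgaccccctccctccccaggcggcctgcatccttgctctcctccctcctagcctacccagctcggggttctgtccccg
SCD (chr10:100346983-100347282, plus strand): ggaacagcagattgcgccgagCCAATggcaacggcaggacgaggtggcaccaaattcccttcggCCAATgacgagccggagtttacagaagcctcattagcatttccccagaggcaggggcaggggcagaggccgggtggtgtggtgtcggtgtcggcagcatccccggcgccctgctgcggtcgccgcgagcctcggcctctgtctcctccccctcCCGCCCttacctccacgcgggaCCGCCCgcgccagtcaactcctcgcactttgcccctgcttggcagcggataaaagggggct
ELOVL5 (chr6:53348901-53349200, minus strand): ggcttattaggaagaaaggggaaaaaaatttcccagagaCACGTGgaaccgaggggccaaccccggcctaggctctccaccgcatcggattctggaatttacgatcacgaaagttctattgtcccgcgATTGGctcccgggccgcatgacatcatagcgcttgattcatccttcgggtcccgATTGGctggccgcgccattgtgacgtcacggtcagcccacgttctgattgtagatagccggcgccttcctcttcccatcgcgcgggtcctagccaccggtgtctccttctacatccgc

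SCD carried CCAAT boxes that began 229 and 186 bases before the start site of its window. Its GC boxes, at 33 and 11 bases, were read on the opposite strand. ACSS2 carried a CCAAT box at 123 bases and a GC box at 137, both read on the opposite strand, and ELOVL6 a single GC box at 122 bases. ELOVL5 carried CCAAT boxes at 122 and 68 bases, also on the opposite strand, and an E-box at 211, and the FADS2 window held none of the motifs. Over the 9 windows, a CCAAT box was present in 4 and a GC box in 7, beside 35.7% and 44.6% of all 27305 promoters of the table. The E-box was present in 1 of the 9, beside 7.43% of all promoters. The sterol regulatory element TCACNCCAC, a binding sequence of SREBP, was in 0 of the 9 windows and in 1.15% of all promoters. The LXR direct repeat, a binding sequence of the liver X receptors, was also in 0 of the 9, beside 0.0183% of all. The absence of these letters from a short window says nothing of sites elsewhere, and genes such as SREBF1 and ACACA are known to use more than one promoter. The windows of ACSS2 and FADS2 lie well inside the annotated spans of these genes, which begin upstream at 34872146 and 61792980. So do those of ACLY and FADS1, minus-strand genes whose spans begin upstream at 41930542 and 61829318. Each of these windows thus shows 1 annotated start site, which need not be the one used in these cells.

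Levels were compared between genes per length of exon, as counts per kilobase scaled to the same total in each library (TPM). In control, SCD was the highest at 1244 TPM, followed by FASN at 712 and ACLY at 485. ELOVL5, FADS1 and SREBF1 followed at 203, 165 and 153 TPM. ACACA and ACSS2 stood at 76.1 and 74.8 TPM and were not told apart by counting error (ratio 1.02, interval 0.967 to 1.07). ELOVL6 at 63.4 and FADS2 at 17.9 TPM closed the order, and each other pair of neighbours differed by more than counting error. SCD, FASN, ACLY and ELOVL5 kept these places in YA and in OA. SREBF1 stood above FADS1 in YA (180 and 172 TPM) and in OA (157 and 136 TPM). ACSS2 moved down, to 25.8 TPM in OA, below ELOVL6 at 39.1. Exons of all annotated transcripts were summed for the length, so a gene that uses a short form has its level understated.

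**Figure D1:**
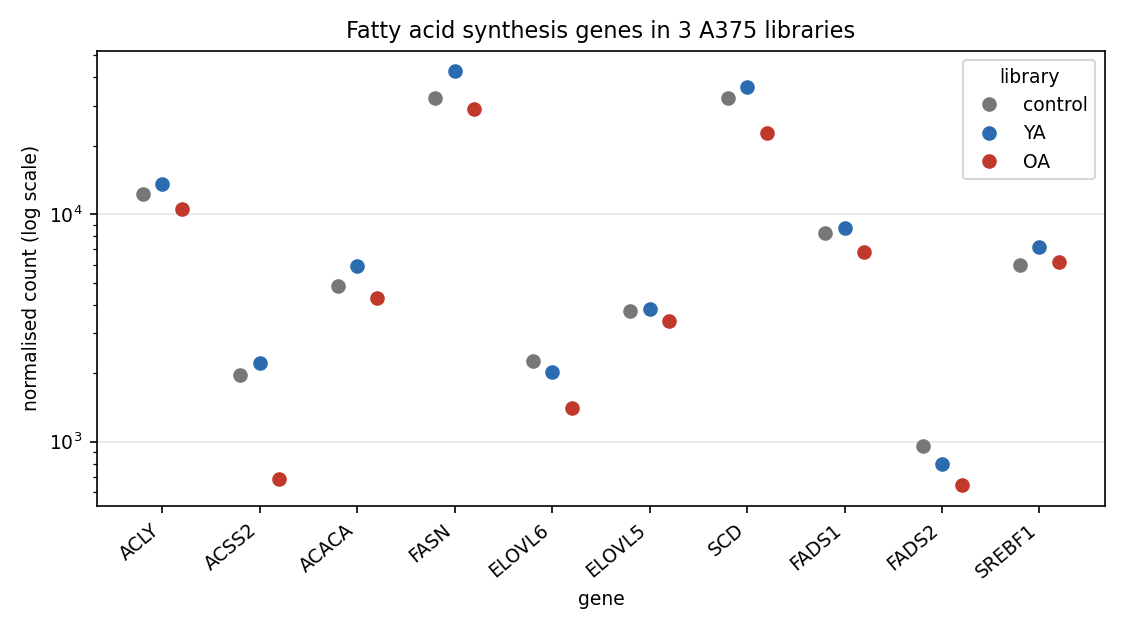
Normalised counts (vertical axis, log scale) of the 10 genes (horizontal axis, in the order of the pathway with SREBF1 last) in the control, YA and OA libraries; each point is 1 library. OA is the lowest of the 3 points for every gene but SREBF1, and the widest gap is that of ACSS2, from 2220 in YA to 682 in OA.

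Of the genes that supply acetyl-CoA, ACLY (chromosome 17, 41866908 to 41930542, GRCh38) had 13059, 14299 and 9335 counts in control, YA and OA. In normalised counts these were 12305, 13514 and 10478, which put YA highest and OA lowest. ACLY was thus 1.10-fold of control in YA (interval 1.07 to 1.12) and 0.852-fold in OA (0.829 to 0.875), within 1.2-fold in both.

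ACSS2 (chromosome 20, 34872146 to 34927962) had 2080, 2349 and 608 counts in control, YA and OA. Its normalised counts were 1960, 2220 and 682, so that control and YA lay close together and OA far below both. ACSS2 was 1.13-fold of control in YA (1.07 to 1.2), 0.348-fold in OA (0.318 to 0.381), and in YA 3.25-fold of its OA level (2.97 to 3.56). This was the widest range among the 10 genes. The ratio of ACSS2 to ACLY counts within a library does not depend on scaling between libraries. It stood at 0.159 (0.152 to 0.167) in control, at 0.164 (0.157 to 0.172) in YA and at 0.0651 (0.0599 to 0.0707) in OA. The weight of acetate-derived against citrate-derived acetyl-CoA transcripts in YA was not told apart from control (1.03, 0.968 to 1.10), and in OA it was 0.409 of its control value (0.372 to 0.449). ACSS2 lay at the 1.60 percentile of the 14413 genes when ranked by the difference between OA and control.

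Of the enzymes that commit carbon to fatty acids, ACACA (chromosome 17, 37084988 to 37406818) had 5116, 6263 and 3809 counts in control, YA and OA. Its normalised counts were 4821, 5919 and 4276. The gene was 1.23-fold of control in YA (1.18 to 1.27) and 0.887-fold in OA (0.850 to 0.925).

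FASN (chromosome 17, 82078333 to 82098332) had 34430, 44821 and 25680 counts in control, YA and OA, or 32443, 42361 and 28826 normalised. It was 1.31-fold of control in YA (1.29 to 1.32) and 0.888-fold in OA (0.874 to 0.903). FASN was the 1 gene of the 10 whose interval in YA lay wholly above 1.2-fold. The share was 6.03% of all genes tested, many of which have far fewer counts and so wider intervals. Between the secretomes FASN was 1.47-fold higher in YA (1.45 to 1.49) and ACACA 1.38-fold higher (1.33 to 1.44). Both genes thus lay above control in YA and a little below it in OA. FASN transcripts are rich in G and C (65.3%, above 97.3% of genes tested) and those of ACACA are long (9.96 kb). After each fold change was corrected for the median of genes of like length and GC content, FASN was at 0.18 and ACACA at 0.25 on the log2 scale in YA against control, neither past 1.2-fold.

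Of the elongases, ELOVL6 (chromosome 4, 110045846 to 110199199) had 2390, 2130 and 1252 counts in control, YA and OA, or 2252, 2013 and 1405 normalised. It was 0.894-fold of control in YA (0.843 to 0.948) and 0.624-fold in OA (0.582 to 0.668). ELOVL6 was thus below control in both secretomes, further in OA.

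ELOVL5 (chromosome 6, 53267398 to 53349179) had the narrowest range of the 10, with 3994, 4047 and 3009 counts, or 3764, 3825 and 3378 normalised. Its fold change was 1.02 in YA (0.973 to 1.06) and 0.897 in OA (0.856 to 0.941). No difference from control was detectable at this depth in YA. The ratio of ELOVL6 to ELOVL5 stood at 0.598 (0.569 to 0.630) in control, at 0.526 (0.499 to 0.555) in YA and at 0.416 (0.389 to 0.445) in OA. The elongase of saturated and monounsaturated acids thus lost weight against that of polyunsaturated acids, to 0.880 of the control ratio in YA (0.818 to 0.946) and 0.695 in OA (0.640 to 0.756).

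Among the desaturases, SCD (chromosome 10, 100347124 to 100364834) had 34467, 38215 and 20232 counts in control, YA and OA. Its normalised counts were 32478, 36118 and 22710, highest in YA and lowest in OA. SCD was 1.11-fold of control in YA (1.10 to 1.13), 0.699-fold in OA (0.687 to 0.712) and in YA 1.59-fold of its OA level (1.56 to 1.62). SCD and FASN had nearly the same count in control, with a ratio of 1.00 (0.986 to 1.02). That ratio was 0.853 in YA (0.841 to 0.864) and 0.788 in OA (0.773 to 0.803). SCD was therefore lower relative to FASN by counts in both secretomes. In YA this did not hold after the correction for length and GC content, which put both genes at 0.18 on the log2 scale, while in OA SCD was at -0.46 and FASN at -0.23. The pseudogene SCDP1, whose sequence could draw reads from SCD, had at most 20 counts in any library.

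FADS1 and FADS2 overlap on chromosome 11, where the span of FADS1 lies within that of FADS2, FADS1 on the minus strand (61799625 to 61829318) and FADS2 on the plus strand (61792980 to 61867354). FADS1 had 8728, 9217 and 6093 counts in control, YA and OA, or 8224, 8711 and 6839 normalised. It was 1.06-fold of control in YA (1.03 to 1.09) and 0.832-fold in OA (0.805 to 0.859), just past the 1.2-fold cutoff. FADS2, the least abundant of the 10, had 1017, 845 and 574 counts, or 958, 799 and 644 normalised. It was below control in both secretomes, at 0.833-fold in YA (0.760 to 0.914) and 0.672-fold in OA (0.606 to 0.746). The value in YA lay at the cutoff itself and was called lower under TMM scaling. FADS1 and FADS2 transcripts share 490 exonic bases on opposite strands and FADS2 shares 49 with FEN1, and whether counting used strand was not stated.

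The FADS1 to FADS2 ratio stood at 8.58 (8.04 to 9.17) in control, at 10.9 (10.2 to 11.7) in YA and at 10.6 (9.74 to 11.6) in OA. It was thus higher in both secretomes by similar amounts, 1.27-fold in YA (1.15 to 1.4) and 1.24-fold in OA (1.11 to 1.38), and the secretomes were not told apart (1.03, 0.920 to 1.15).

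**Figure D2:**
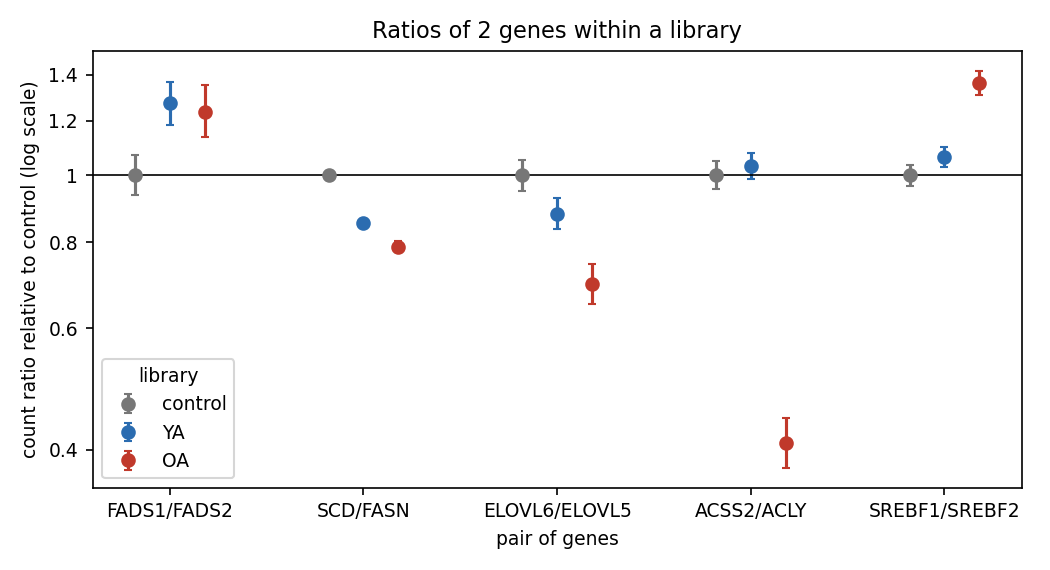
Count ratios of 5 gene pairs within each library, divided by the ratio in control (vertical axis, log scale); points are single libraries and bars are 95% Clopper-Pearson counting intervals of each library's own ratio. ACSS2/ACLY in OA stands lowest at 0.409, SCD/FASN and ELOVL6/ELOVL5 are below 1 in YA and OA, and FADS1/FADS2 is above 1 in both.

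SREBF1 (chromosome 17, 17810399 to 17837002) had 6365, 7549 and 5513 counts in control, YA and OA, or 5998, 7135 and 6188 normalised. It was 1.19-fold of control in YA (1.15 to 1.23), just under the cutoff and past it under total-count scaling without mitochondrial genes, and 1.03-fold in OA (0.995 to 1.07), where no difference was detectable at this depth. SREBF1 was thus the one gene of the 10 that was not below control in OA, although the correction for length and GC content put it at -0.06 on the log2 scale. SREBF2 had 6120, 6831 and 3895 counts and was 0.758-fold of control in OA (0.728 to 0.789). The ratio of SREBF1 to SREBF2 stood at 1.04 (1.00 to 1.08) in control, at 1.11 (1.07 to 1.14) in YA and at 1.42 (1.36 to 1.48) in OA. A count per gene does not separate the isoforms of SREBP1, and it says nothing of how much factor is processed. SREBF1 shares 556 exonic bases with RAI1 on the opposite strand, which had 2935, 3088 and 2283 counts.

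Counted over the 10 genes, 2 exceeded control by 1.2-fold or more in YA (FASN and ACACA) and 0 were lower by as much, beside 17.4% of all genes tested that were higher and 16.4% that were lower. Their median log2 fold change was 0.14, beside -0.02 over all genes. In OA against control, 0 were higher and 5 lower (ACSS2, ELOVL6, FADS2, SCD and FADS1), beside 21.1% and 21.5% of all genes. The median was -0.25, beside 0.01 over all genes. The 10 genes are well counted, and among the 5483 genes at least as abundant as FADS2 the shares were smaller, 8.90% higher and 8.57% lower in YA and 15.1% higher and 12.9% lower in OA.

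Between the secretomes, 8 of the 10 genes exceeded their OA level by 1.2-fold or more in YA and 0 fell short of it by as much, beside 23.0% and 21.5% of all genes and 12.1% and 16.7% of those at least as abundant as FADS2. The median log2 difference was 0.42, beside -0.01 over all genes. ELOVL5 and SREBF1 stayed within 1.2-fold, at 1.13-fold (1.08 to 1.19) and 1.15-fold (1.11 to 1.19) higher in YA. Of the others FADS2 was nearest to the cutoff, at 1.24-fold (1.11 to 1.38), and ACSS2 furthest past it. The comparisons of YA and OA with control use the same control library, so their values are not independent of each other.

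**Figure D3:**
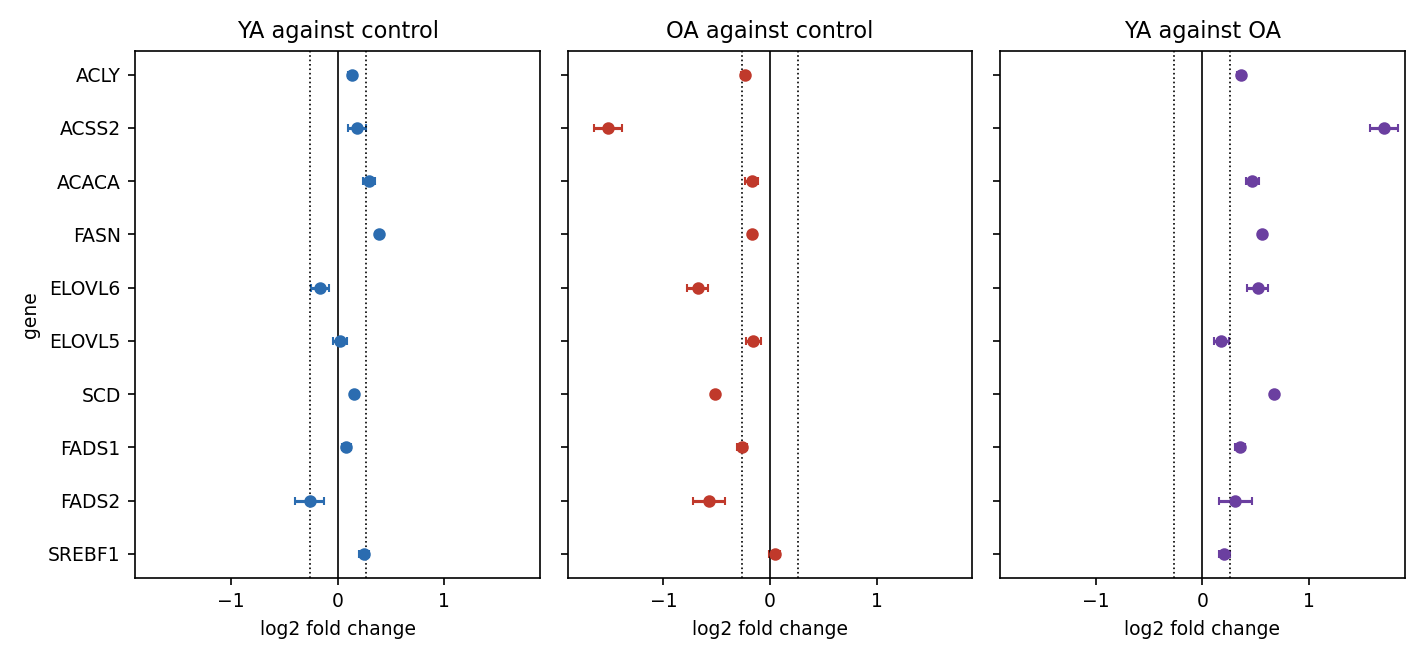
Log2 fold change (horizontal axis) of each of the 10 genes (vertical axis) in YA against control, OA against control and YA against OA, with bars for 95% counting intervals, a solid line at no difference and dotted lines at 1.2-fold. In OA every gene but SREBF1 lies left of the solid line, with ACSS2 furthest at -1.52, and in YA against OA all 10 lie to the right.

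As a share of all counts the 10 genes together stood at 0.521% (0.518 to 0.524, 95% Wilson interval) in control, at 0.609% (0.606 to 0.612) in YA and at 0.421% (0.418 to 0.424) in OA. Within this pool FASN made up 30.8% of counts in control (30.6 to 31.1), against 34.5% (34.3 to 34.8) for YA and 33.7% (33.4 to 34.1) for OA. SCD stood at 30.9% (30.6 to 31.1) in control, at 29.5% (29.2 to 29.7) in YA and at 26.6% (26.3 to 26.9) in OA. The share of SREBF1 stood at 5.70% (5.57 to 5.84) in control, at 5.82% (5.69 to 5.95) in YA and at 7.24% (7.06 to 7.43) in OA. By counts the pool thus held more FASN and less SCD in either secretome than in control, which in YA was not so after the length and GC correction given above for both genes.

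Of 23 other enzymes of synthesis, elongation and desaturation, 18 were tested. In OA against control 4 were higher and 4 lower, near the 21.1% and 21.5% of all genes, with a median of 0.09. In YA 5 were higher and 1 lower, beside 17.4% and 16.4% of all genes, with a median of 0.07. FADS3, the third gene of the desaturase cluster, had 1367, 1618 and 798 counts in control, YA and OA, 0.695-fold of control in OA (0.636 to 0.759). ELOVL4, which makes very long chains, had 436, 402 and 241 counts (0.658-fold in OA, 0.560 to 0.772). ELOVL1, an elongase of long saturated chains, had 1608, 1552 and 1510 counts and stood at 1.12-fold of control in OA (1.04 to 1.2).

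For paralogs of SCD and ACACA no difference from control was detectable in OA. SCD5, the second stearoyl-CoA desaturase of humans, had 302, 244 and 256 counts, 0.810-fold of control in YA (0.682 to 0.962) and 1.01-fold in OA (0.852 to 1.2). ACACB, the acetyl-CoA carboxylase of the mitochondrial surface, had 318, 367 and 258 counts and was 0.966-fold of control in OA (0.817 to 1.14). HSD17B8, a subunit of a mitochondrial fatty acid synthesis enzyme, had 78, 110 and 129 counts, 1.97-fold of control in OA (1.48 to 2.64).

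Genes that supply citrate, NADPH and acyl-CoA numbered 21 tested of 22. In YA 2 were higher and 3 lower (median 0.09), and in OA 4 were higher and 7 lower (median -0.01). Of all genes, 17.4% were higher and 16.4% lower in YA, and 21.1% and 21.5% in OA. ACSS1, the mitochondrial acetyl-CoA synthetase, had 533, 413 and 148 counts in control, YA and OA, 0.331-fold of control in OA (0.274 to 0.398), close to the 0.348 of ACSS2. PANK1, a kinase of coenzyme A synthesis, had 286, 198 and 125 counts (0.521-fold in OA, 0.419 to 0.645). IDH2, the mitochondrial NADP-dependent isocitrate dehydrogenase, had 851, 956 and 516 counts (0.722-fold in OA, 0.646 to 0.807).

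Of 34 regulators of the pathway tested of 35, 3 were higher and 2 lower in YA (median -0.01), and 3 were higher and 5 lower in OA (median 0.03), beside 17.4% and 16.4% of all genes in YA and 21.1% and 21.5% in OA. INSIG1, which holds SREBP precursors in the endoplasmic reticulum and is itself an SREBP target, had 3553, 4000 and 2044 counts in control, YA and OA. Its fold change in OA was 0.685 (0.649 to 0.724). SCAP, the escort of SREBP, had 2555, 2781 and 2172 counts and was 1.01-fold of control in OA (0.956 to 1.07). LPIN1, a phosphatidate phosphatase, had 2350, 2438 and 1325 counts (0.672-fold in OA, 0.627 to 0.719). NR1H3, the liver X receptor alpha, had 595, 758 and 517 counts, 1.28-fold of control in YA (1.15 to 1.42) and 1.04-fold in OA (0.918 to 1.17). PRKAB2, a regulatory subunit of AMPK, had 600, 1027 and 659 counts, 1.72-fold of control in YA (1.55 to 1.9).

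The sterol targets of SREBP were lower in OA as a group. Of 23 tested of 24, 21 were at least 1.2-fold lower and 0 higher in OA against control, beside 21.5% of all genes lower, with a median of -0.67. HMGCS1, an early enzyme of cholesterol synthesis, had 3760, 3924 and 1043 counts (0.330-fold in OA, 0.308 to 0.354), a fold like that of ACSS2. MSMO1, a later enzyme of that pathway, had 1253, 1382 and 504 counts (0.479-fold in OA, 0.431 to 0.532). TM7SF2, a sterol reductase, had 109, 188 and 68 counts, 1.73-fold of control in YA (1.36 to 2.21), and its interval in OA crossed 1 (0.743, 0.541 to 1.02). PMVK, named because it was the one sterol gene lower in YA than in OA, had 749, 719 and 730 counts. In YA against control 5 of the 23 were higher and 0 lower, beside 17.4% and 16.4% of all genes. In YA against OA 22 were higher and 1 lower (PMVK), beside 23.0% and 21.5% of all genes.

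**Figure D4:**
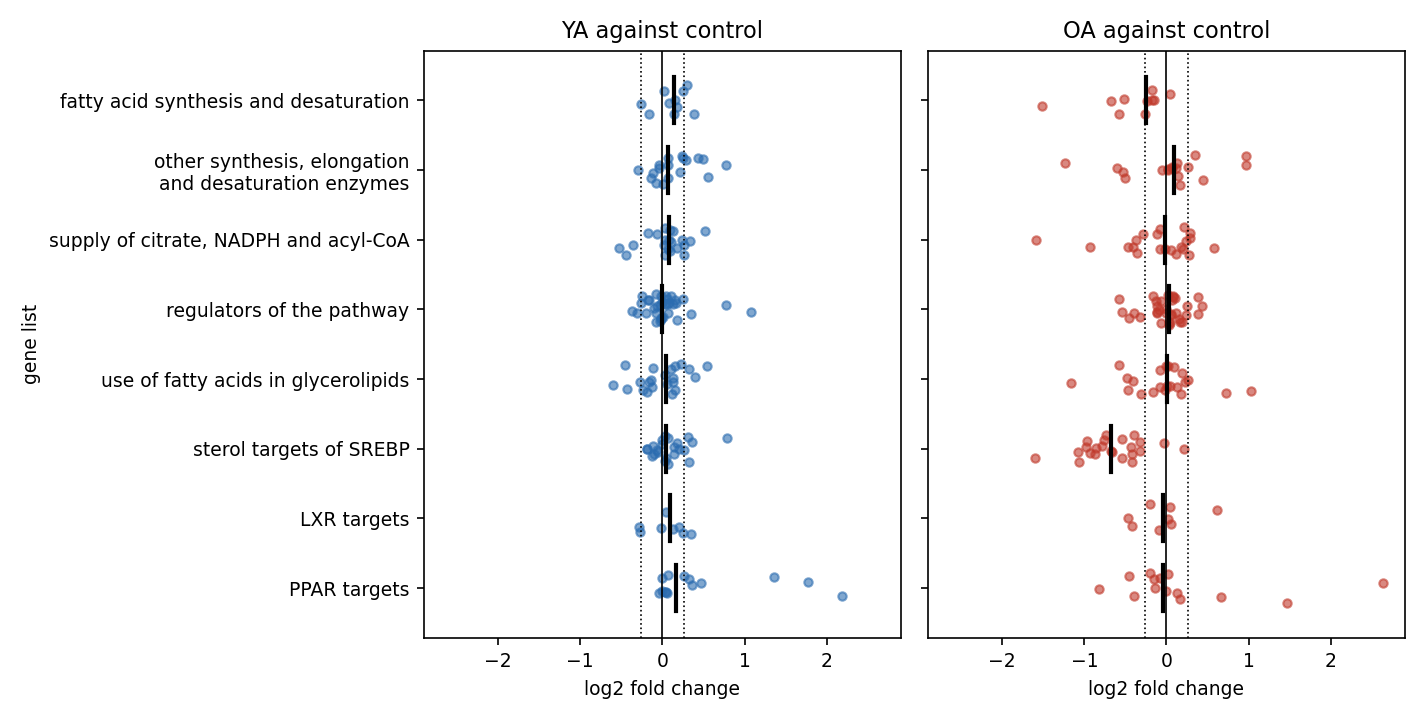
Log2 fold change against control (horizontal axes) of every tested gene of the 10 and of 7 related lists (vertical axis) in YA (left) and OA (right); points are genes, black bars list medians and dotted lines 1.2-fold. In OA the medians of the fatty acid genes (-0.25) and sterol targets (-0.67) lie left of zero, and those of the other lists lie between -0.04 and 0.09.

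Of 22 genes tested of 25 that place fatty acids into glycerolipids, 3 were higher and 6 lower in OA (median 0.00) and 3 higher and 4 lower in YA (median 0.04). The shares of all genes were 21.1% higher and 21.5% lower in OA, and 17.4% and 16.4% in YA. GPAT3, a glycerol phosphate acyltransferase, had 2536, 2964 and 4337 counts, 2.04-fold of control in OA (1.94 to 2.14). DGAT2, which makes triglyceride, had 116, 84 and 162 counts (1.66-fold in OA, 1.30 to 2.13). MBOAT2, an acyltransferase of lysophospholipids, had 775, 575 and 758 counts (0.744-fold in YA, 0.667 to 0.830). Each of these 3 was lower in YA than in OA, the reverse of the 10 members. The list as a whole did not run that way, with 5 of the 22 higher and 4 lower in YA against OA.

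LXR and PPAR targets were read beside the members, since both receptors respond to lipids. Of 8 LXR targets tested of 10, SREBF1 among them, 1 was higher and 2 lower in each secretome against control, with medians of 0.09 in YA and -0.04 in OA. ABCA1, the cholesterol exporter, had 348, 287 and 449 counts (1.54-fold in OA, 1.33 to 1.77), while LPCAT3, an acyltransferase of phospholipids, had 452, 492 and 275 (0.725-fold, 0.622 to 0.844) and MYLIP, a ubiquitin ligase, 326, 336 and 204 (0.745-fold, 0.623 to 0.891). Of 14 PPAR targets tested of 15, 6 were higher and 0 lower in YA (median 0.16), and 3 were higher and 3 lower in OA (median -0.04). Beside both lists, 17.4% of all genes were higher and 16.4% lower in YA, and 21.1% and 21.5% in OA. ANGPTL4, a lipase inhibitor, had 78, 267 and 183 counts, 3.43-fold of control in YA (2.66 to 4.48) and 2.79-fold in OA (2.13 to 3.69). TXNIP, a thioredoxin inhibitor, had 706, 1813 and 939 counts. PDK4, a kinase that inhibits pyruvate dehydrogenase, had 949, 1211 and 449 counts, 1.28-fold in YA (1.17 to 1.39) and 0.564-fold in OA (0.503 to 0.631).

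Read directly between the secretomes, the remaining lists were counted in the same way, beside 23.0% of all genes higher and 21.5% lower. In YA against OA 10 supply genes stood higher and 3 lower, as did 7 and 1 PPAR targets and 4 and 2 LXR targets. The numbers were 5 and 4 for the other enzymes of synthesis, 7 and 6 for regulators, and 5 and 4 for glycerolipid genes.

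The genes most like ACSS2 in pattern were sought among 11161 others whose normalised count averaged 100 or more, by the Euclidean distance between log2 fold changes in YA and OA against control over the 3 libraries. The nearest 5 were LINC01419 (distance 0.06), RNF150 (0.07), HLA-DQB1 (0.11), RAB17 (0.12) and AC016735.2 (0.12). LINC01419, a long noncoding RNA, had 2594, 2953 and 730 counts in control, YA and OA, beside 2080, 2349 and 608 for ACSS2. Near-identical HLA genes make the count of HLA-DQB1 uncertain.

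Adipocytes express FASN and SCD strongly, so their markers were read in the same libraries. ADIPOQ had 1 count in control and 0 in YA and OA, and LEP and CIDEA had 0 in all 3. Of 14 adipocyte markers 7 passed the filter, and all 14 together summed to 287, 322 and 289 CPM (counts scaled to equal library totals) in control, YA and OA, most of it from ADIPOR2 and PPARG. Of these 7, YA exceeded control by 1.2-fold in 6 and was lower in 0, and 3 were higher (CIDEC, PLIN4 and CFD) and 1 lower (LPL) in OA. For these markers and those of fibroblasts below, the shares of all genes were 17.4% higher and 16.4% lower in YA. In OA those shares were 21.1% and 21.5%. LPL, a lipoprotein lipase, had 353, 583 and 30 counts in control, YA and OA, and PLIN4, a lipid droplet coat protein, 284, 579 and 321. The 10 fibroblast and preadipocyte markers summed to 110, 126 and 99.5 CPM, with COL1A2 and COL3A1 at 2 counts or fewer throughout. COL1A1 had 75, 117 and 84 counts in control, YA and OA, and LUM 66, 101 and 58. PDGFRB had 515, 568 and 334 counts and FBN1 1601, 1740 and 1238. Of the 6 that passed the filter 3 were higher and 1 lower in YA, and 2 were higher and 2 lower in OA, with DCN at 13, 138 and 24 counts and PDGFRA at 76, 20 and 51. The 4 immune markers summed to 0, 2 and 0 counts. Mitochondrially encoded genes took 1.51%, 2.47% and 1.59% of all counts. The part of these differences in the members' values was not tested.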

How the data were processed

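A375 cells in serum-free medium (control), young (YA) or old (OA) adipocyte secretome were sequenced as poly(A) RNA (Agilent SureSelect, Illumina NovaSeq), with 1 library per group. The authors deposited raw counts per gene. The submitters' processing notes name STAR 2.5.1b, featureCounts, R 3.6.1 and hg38. The annotation release, strand setting and handling of multi-mapping reads were not given in the sources used here. Totals were 21448195, 21306558 and 18089008 counts in control, YA and OA.

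Size factors came from DESeq2 1.42.0 and TMM factors from edgeR 4.0.16 in R 4.3.3. Intervals came from scipy 1.17.1, figures from matplotlib 3.10.9 and the rest from pandas 2.3.3 and numpy 2.4.6, all under Python 3.11.15. Log2 fold changes were log2((a + 1)/(b + 1)) of normalised counts, and folds in the text are plain ratios of normalised counts. A quasi-likelihood fit in edgeR needs replicates, so with 1 library per group there was no test and no p-value. Lengths and positions came from GENCODE release 29 (GRCh38), which held 57433 of 58037 identifiers, and promoters from RefSeq (GRCh38.p14). Intervals of ratios between libraries of 2 genes used the normal approximation on the log scale. Named genes were the 10 members, the 3 listed genes per list with the widest fold change at a mean of at least 100, a set of 10 genes taken whatever their values (1 of them is not reported here), and the 5 nearest in pattern. PMVK and the markers quoted singly were chosen after values were seen. Members and lists were chosen with earlier results of these data known. The functions were tested on simulated data.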

Additional observations from a re-analysis of the deposited data

How the results depend on the processing

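The 10 genes kept their calls in OA against control under TMM scaling, total-count scaling, total-count scaling without mitochondrial genes, a pseudocount of 5 and the correction for length and GC content, which was chosen after seeing the data. In YA against control, where values lie near 1.2-fold, TMM scaling called 1 gene lower (FADS2) and the length and GC correction called 0 higher and 1 lower (FADS2). FADS2 was also within 1.2-fold in YA against OA after that correction. Stricter thresholds pass fewer genes by their construction. At 2-fold, and also at a log2 threshold of 1.2, the 2 genes higher in YA against control became 0, the 5 lower in OA against control became 1, and the 8 higher in YA against OA became 1 (ACSS2 in both), and a counting interval wholly beyond 1.2-fold left 1 higher in YA against control. The mean in place of the median gave -0.42 in OA against control and 0.53 in YA against OA. The length and GC correction moved the median in YA against OA to 0.35 and SREBF1 in OA against control from 0.05 to -0.06, and the cause was not tested. With no filter, which adds genes of few counts, the calls took in 31.3% (higher) and 30.1% (lower) of all genes for YA against control, 36.3% (lower) for OA against control and 37.2% (higher) for YA against OA. No paired analysis was possible because each group has 1 library. Leaving out a library was not possible for the same reason. Counting error limits the values of FADS2 most.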
